A study of Mus musculus with 9 samples.

Results

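Dbp, Tef, Hlf, Nfil3, Bhlhe40, Bhlhe41, Ccrn4l and Rora are outputs of the circadian clock or act in its loops. Their transcripts were measured in 9 mouse livers. The genes were chosen by symbol, with earlier results of these data known, and all 8 were found among the 20325 gene symbols of each table. Each also passed the filter on low counts that left 12037 genes for testing. Ccrn4l is the older symbol of Noct, the gene of Nocturnin.

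All livers came from male C57BL/6J mice on chow, with 3 livers in each of 3 groups that the design text calls biological replicates. ConvD mice were germ-free animals colonised through a single gavage of cecal contents from conventionally raised donors, GF+SCFA mice stayed germ-free with short-chain fatty acids in their drinking water (acetate at 67.5 mM, propionate at 25.9 mM and butyrate at 40 mM), and GF mice stayed germ-free on plain water. The design text gives an age of 14 weeks, whereas the growth protocol gives colonisation at 15 weeks for 4 weeks and dissection at 19 weeks. Mice lived under 12 h of light and 12 h of dark and were caged by colonisation status. No hour of dissection is given in the sources used here, so group, cage and hour of dissection cannot be told apart in any result.

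The mammalian clock is a transcriptional loop in which the activators CLOCK and BMAL1 drive their own repressors, the PER and CRY proteins, through E-box elements. A second loop acts at ROR response elements, where ROR receptors activate and REV-ERB receptors repress. Of the genes described here, that of RORA belongs to the second loop, and those of BHLHE40 and BHLHE41 act at the E-box of the first. The others are outputs of the loops. DBP, TEF and HLF are the PAR bZIP activators of D-box elements, and NFIL3 (E4BP4) is a repressor at the same elements. In liver, D-box genes include many of drug and bile acid metabolism. BHLHE40 and BHLHE41 (DEC1 and DEC2) are E-box repressors, RORA acts at ROR response elements, and Nocturnin is a strongly rhythmic protein of the deadenylase superfamily that has been linked in mice to lipid handling.

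The promoter windows below show where E-box letters or the nuclear receptor half-site stand near the starts of these genes, together with that of Ccrn4l, the gene with the smallest adjusted p. They are RefSeq windows of the assembly GRCm38.p6, running from 250 bases before to 50 bases after a gene's start, 5′ to 3′ on the gene's strand. Of the 8 genes, 7 have a window in that table. Capitals mark a match to the E-box CACGTG or to the half-site AGGTCA, which reads TGACCT on the other strand. The windows are chr13:52980990-52981289 (minus strand) for Nfil3, chr6:145865371-145865670 (minus) for Bhlhe41, chr3:51224197-51224496 (plus) for Ccrn4l, and chr15:81802423-81802722 (plus) and chr15:81811164-81811463 (plus) for the start sites of Tef.
Nfil3: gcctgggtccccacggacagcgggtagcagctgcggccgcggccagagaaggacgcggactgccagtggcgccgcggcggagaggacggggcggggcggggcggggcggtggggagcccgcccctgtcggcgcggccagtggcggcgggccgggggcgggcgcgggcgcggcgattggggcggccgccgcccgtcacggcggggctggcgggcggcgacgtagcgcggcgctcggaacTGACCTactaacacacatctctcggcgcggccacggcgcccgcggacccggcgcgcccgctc
Bhlhe41: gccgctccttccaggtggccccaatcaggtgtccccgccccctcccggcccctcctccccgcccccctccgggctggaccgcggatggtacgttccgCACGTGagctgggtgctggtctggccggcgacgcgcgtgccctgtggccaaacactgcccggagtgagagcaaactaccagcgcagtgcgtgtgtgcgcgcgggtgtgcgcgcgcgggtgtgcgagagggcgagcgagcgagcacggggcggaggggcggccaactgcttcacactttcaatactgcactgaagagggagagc
Ccrn4l: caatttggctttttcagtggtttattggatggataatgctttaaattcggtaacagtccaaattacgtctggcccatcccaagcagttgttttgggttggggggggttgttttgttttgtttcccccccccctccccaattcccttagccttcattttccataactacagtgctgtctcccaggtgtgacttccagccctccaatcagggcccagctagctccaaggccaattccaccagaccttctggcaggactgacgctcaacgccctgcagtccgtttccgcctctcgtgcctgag
Tef, upstream start: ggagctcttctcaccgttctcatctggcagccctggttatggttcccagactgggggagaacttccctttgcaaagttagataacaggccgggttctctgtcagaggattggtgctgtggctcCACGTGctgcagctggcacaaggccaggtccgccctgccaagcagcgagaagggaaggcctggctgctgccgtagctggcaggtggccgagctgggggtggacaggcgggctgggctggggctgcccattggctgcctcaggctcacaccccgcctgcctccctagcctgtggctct
Tef, downstream start: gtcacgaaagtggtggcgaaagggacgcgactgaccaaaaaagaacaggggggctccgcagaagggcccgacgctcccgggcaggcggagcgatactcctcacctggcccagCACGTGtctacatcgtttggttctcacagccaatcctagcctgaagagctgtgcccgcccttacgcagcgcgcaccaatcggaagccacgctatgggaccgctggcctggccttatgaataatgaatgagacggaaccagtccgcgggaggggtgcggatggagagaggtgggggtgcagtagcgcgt

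The E-box begins 153 bases before the start in Bhlhe41 and 127 and 138 bases before the starts of Tef. The half-site begins 12 bases before the start of Nfil3. Among 32851 windows of 300 bases in the table, 7.15% hold the E-box and 16.3% hold the half-site on either strand. The D-box was searched as TTATGTAA, its reverse complement TTACATAA, and TTACGTAA. It is in 1.06% of windows and in 0 of these genes' windows. The windows of Dbp, Hlf, Ccrn4l and Rora hold 0 matches to any of the letters searched, which says nothing about sites elsewhere in these genes.

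Library totals were 18193071 to 21627696 expected counts (reads assigned to a gene by RSEM). Levels below are the deposited TPM, a relative abundance that is scaled to gene length. Fold changes are log2 values from edgeR's quasi-likelihood test on the counts, given with a standard error (SE), and a gene is called changed at a Benjamini-Hochberg adjusted p under 0.05 over all 12037 genes. The summed TPM of 7 hepatocyte markers was 89700 to 115000 in ConvD, 87600 to 98300 in GF+SCFA and 88400 to 110000 in GF livers. In ConvD against GF, 1 of the 7 was called higher and 1 lower, where 12.8% of all genes were called. Against GF+SCFA, 1 was called higher and 2 lower, where 18.4% of all genes were called. Markers of Kupffer cells and macrophages (11 genes) summed to 405 to 545 TPM in ConvD, 289 to 358 TPM in GF+SCFA and 253 to 348 TPM in GF livers. Neutrophil and monocyte markers (9 genes) summed to 26.1 to 41.8 TPM in ConvD, 1.87 to 3.47 TPM in GF+SCFA and 2.97 to 5.48 TPM in GF livers, with Ltf, Camp and Mpo listed at 0 in every library of both germ-free groups.

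In colonised livers Nocturnin mRNA was lower and Bhlhe41 mRNA higher than in either germ-free group. Against GF livers, Tef and Hlf were also slightly lower, and against GF+SCFA livers Dbp was higher and Nfil3 lower. Between the 2 germ-free groups, 0 of the 8 genes were called. In ConvD against GF, 4 of 8 genes were called, where 12.8% of all tested genes were. Of these, 1 was higher (5.93% of all genes) and 3 were lower (6.9%). In ConvD against GF+SCFA, 4 of 8 were called, 2 higher and 2 lower, against 18.4% of all genes (9.44% higher and 8.97% lower). In GF+SCFA against GF, 0.0415% of all genes were called. The direction of calls over all genes moved with scaling. Against GF, 714 genes were higher and 830 lower, but 1061 were higher and 391 lower when libraries were scaled by their totals. Against GF+SCFA, 1136 were higher and 1080 lower, but 1541 were higher and 586 lower by totals. The comparisons share groups of livers, so they are not independent of each other. Because earlier results were known when the genes and the lists below were chosen, counts set beside shares over all genes are a description.

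**Figure D1:**
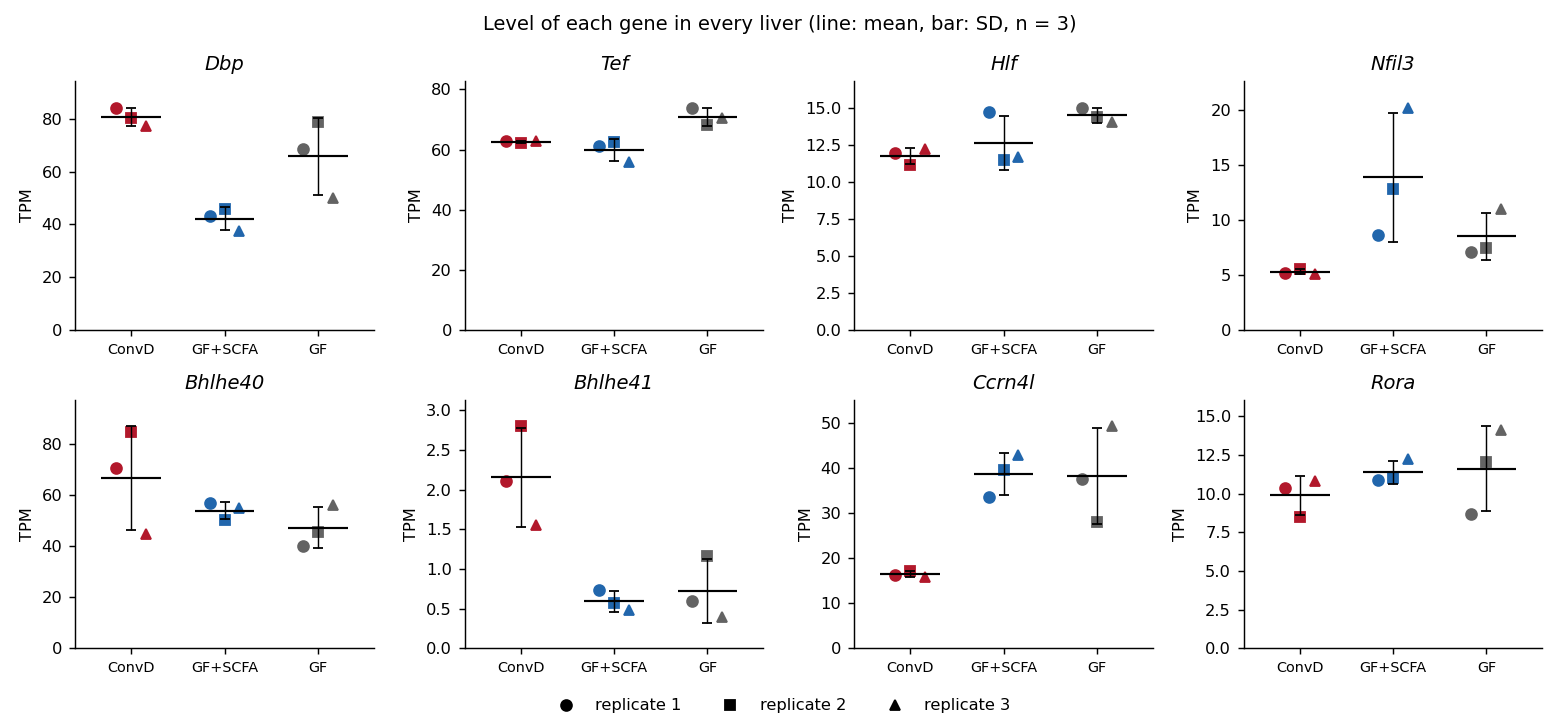
TPM of each of the 8 genes in the livers of the ConvD, GF+SCFA and GF groups, with marker shape giving the replicate, the line the mean and the bar the SD of 3 livers. Ccrn4l lies at 15.9 to 17.2 TPM in ConvD livers and at 27.9 TPM or more in every other liver, and the ConvD livers are the lowest for Nfil3 and the highest for Bhlhe41.

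Dbp, which encodes the most strongly rhythmic of the PAR bZIP activators in liver, had 84.2, 80.4 and 77.3 TPM in ConvD livers, 43.2, 45.8 and 37.5 TPM in GF+SCFA livers and 68.5, 78.7 and 49.9 TPM in GF livers. The GF+SCFA livers were all below the livers of both other groups, and the ConvD and GF livers overlapped at the top of the GF range. Dbp was 1.80-fold higher in ConvD than in GF+SCFA livers (log2 fold change 0.85, SE 0.18, adjusted p = 0.0163). Leaving out any of 4 livers ended that call, with an adjusted p of 0.0522 without ConvD replicate 1, 0.0557 without ConvD replicate 2, 0.0505 without GF+SCFA replicate 2 and 0.058 without GF+SCFA replicate 3. The log2 fold change was 0.21 (SE 0.18, adjusted p = 0.49) for ConvD against GF. It was -0.64 (SE 0.18, adjusted p = 0.27, unadjusted p = 0.00851) for GF+SCFA against GF. This last difference was called with DESeq2 (adjusted p = 0.0204) and, by edgeR, without GF replicate 3, the GF liver with the least Dbp (log2 fold change -0.84, adjusted p = 0.000515), while over all alternatives the adjusted p ran up to 0.613. On the assembly GRCm38.p6, Dbp overlaps Sphk2, a sphingosine kinase gene, and the strand setting of the counting is not given in the sources used here. Sphk2 averaged 11.7 ± 3.09 TPM in ConvD, 11.8 ± 0.892 TPM in GF+SCFA and 11.5 ± 0.34 TPM in GF livers (SD, n = 3 each), and it was not called in any comparison. Cholangiocyte markers (5 genes) also had their lowest sums in the GF+SCFA livers, 26.5 to 30.8 TPM, against 44.2 to 76.0 TPM in ConvD and 49.3 to 50.8 TPM in GF livers. Their part in the Dbp difference was not tested.

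Tef, another PAR bZIP activator and one with a flat daily rhythm compared with Dbp, had 62.7, 62.2 and 62.7 TPM in ConvD livers, 61.2, 62.6 and 55.9 TPM in GF+SCFA livers and 73.9, 68.1 and 70.5 TPM in GF livers. Every GF liver was above every liver of the other groups. The log2 fold change was -0.25 (SE 0.07, adjusted p = 0.0396) for ConvD against GF and -0.22 (SE 0.07, adjusted p = 0.273) for GF+SCFA against GF. ConvD and GF+SCFA livers overlapped, with a log2 fold change of -0.03 (SE 0.07, adjusted p = 0.832). Hlf, the third PAR bZIP activator, was lower per length than Dbp and Tef. Its levels were 11.9, 11.1 and 12.2 TPM in ConvD livers, 14.7, 11.5 and 11.7 TPM in GF+SCFA livers and 15.0, 14.4 and 14.1 TPM in GF livers. The ConvD livers lay below all GF livers, and the GF+SCFA livers spanned both. Hlf fell to 77.3% of the GF level in ConvD livers (log2 fold change -0.37, SE 0.11, adjusted p = 0.0374). Both small decreases depended on the scaling of the libraries. With library totals alone, the adjusted p against GF was 0.15 for Tef and 0.0653 for Hlf, and with upper-quartile factors it was 0.108 for Tef and 0.0768 for Hlf. In 9 fits that each left out a liver, the call was made in 3 for Tef and in 5 for Hlf.

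Nfil3, the D-box repressor, had 5.20, 5.57 and 5.09 TPM in ConvD livers, 8.63, 12.8 and 20.2 TPM in GF+SCFA livers and 7.05, 7.47 and 11.0 TPM in GF livers. All ConvD livers lay below all others, and the GF+SCFA livers were the most spread. The ConvD level was 35.9% of the GF+SCFA level (log2 fold change -1.48, SE 0.30, adjusted p = 0.0142). That call was lost without ConvD replicate 1 (adjusted p = 0.0581) and without ConvD replicate 2 (adjusted p = 0.0525). The difference from GF livers was -0.74 on the log2 scale (SE 0.31, adjusted p = 0.162, unadjusted p = 0.0441), although these groups did not overlap. It was called by DESeq2 (adjusted p = 0.0233) and when only the livers of these groups were fitted (adjusted p = 0.0125). By edgeR it was also called with the replicate number as a block (adjusted p = 0.0324). The same held without GF+SCFA replicate 1 (adjusted p = 0.0405) and without GF+SCFA replicate 3 (adjusted p = 0.014). The adjusted p over all alternatives reached 0.353. For GF+SCFA against GF the log2 fold change was 0.74 (SE 0.29, adjusted p = 0.373). It was 0.35 without GF+SCFA replicate 3.

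**Figure D2:**
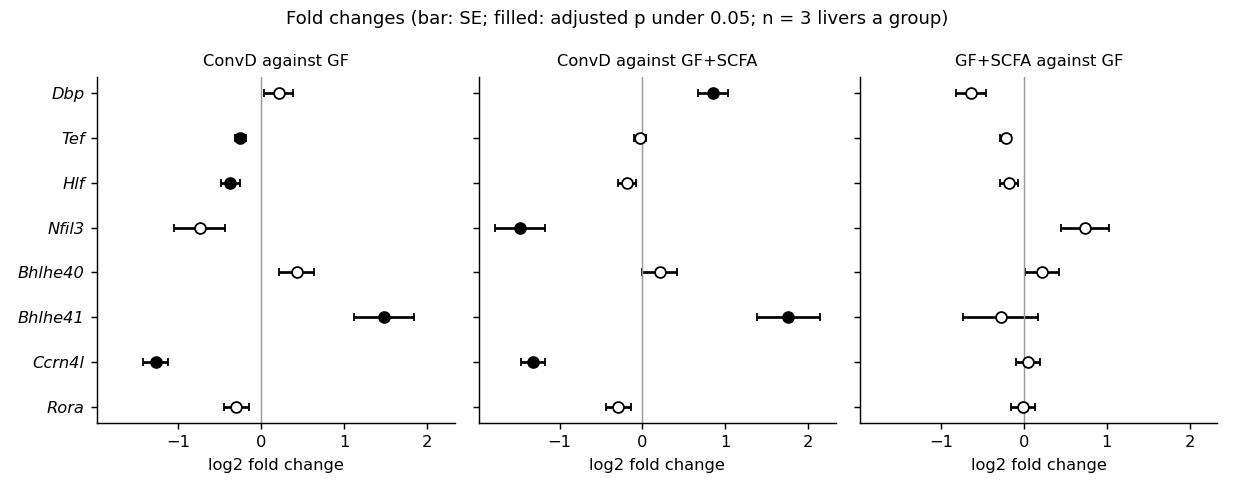
Log2 fold change (x axis) of the 8 genes in each comparison, with the standard error as a bar and filled points for an adjusted p under 0.05. Ccrn4l and Bhlhe41 are filled in both comparisons with ConvD livers, at -1.27 and 1.48 against GF and at -1.32 and 1.76 against GF+SCFA, and no point is filled for GF+SCFA against GF.

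Activators and repressor of the D-box can be set against each other within a library, which takes the scaling between libraries out of the comparison. The summed TPM of Dbp, Tef and Hlf was 30.5, 27.6 and 29.9 times the TPM of Nfil3 in ConvD livers, 13.8, 9.38 and 5.20 times in GF+SCFA livers and 22.3, 21.6 and 12.2 times in GF livers. The ConvD ratios were above all others and lay close together, while the GF+SCFA and GF livers overlapped through GF+SCFA replicate 1 and GF replicate 3. On the log2 scale the ratio averaged 4.87 ± 0.08 in ConvD, 3.13 ± 0.71 in GF+SCFA and 4.18 ± 0.49 in GF livers (SD, n = 3 each). The ratio combines genes that were tested above, so it is given without a test.

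Bhlhe40, an E-box repressor that also responds to many acute signals, had 70.6, 84.8 and 44.8 TPM in ConvD livers, 56.9, 50.2 and 54.8 TPM in GF+SCFA livers and 40.3, 45.5 and 56.2 TPM in GF livers. The groups overlapped in all comparisons, with ConvD replicate 3 within the range of the GF livers and below the GF+SCFA livers. The log2 fold change was 0.43 (SE 0.21, adjusted p = 0.223) for ConvD against GF and 0.21 (SE 0.21, adjusted p = 0.528) for ConvD against GF+SCFA. Without ConvD replicate 3 these were 0.63 (adjusted p = 0.0106) and 0.41 (adjusted p = 0.0473), and over all alternatives the adjusted p ran up to 0.458 and 0.979. For GF+SCFA against GF the log2 fold change was 0.22 (SE 0.21, adjusted p = 0.721).

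Bhlhe41, the close relative of Bhlhe40, was a scarce transcript and the sole member called higher against GF livers. It had 2.11, 2.80 and 1.56 TPM in ConvD livers, 0.74, 0.57 and 0.48 TPM in GF+SCFA livers and 0.60, 1.17 and 0.40 TPM in GF livers. These levels rest on 35, 49 and 26 counts in ConvD, 12, 10 and 8 counts in GF+SCFA and 10, 22 and 7 counts in GF livers. All ConvD livers were above all others. Bhlhe41 was 2.79-fold higher in ConvD than in GF livers (log2 fold change 1.48, SE 0.36, adjusted p = 0.0166) and 3.39-fold higher than in GF+SCFA livers (log2 fold change 1.76, SE 0.38, adjusted p = 0.00606). The call against GF was lost without ConvD replicate 2 (adjusted p = 0.0764) and without GF replicate 1 (adjusted p = 0.0606). The call against GF+SCFA was made in all 9 fits without a liver. For GF+SCFA against GF the log2 fold change was -0.28 (SE 0.45, adjusted p = 0.845). Markers of some other cell types, but not of all, moved with the group, beside Bhlhe41 and the other differences of the ConvD livers. Over all genes, 5.93% were called higher and 6.9% lower against GF, and 9.44% higher and 8.97% lower against GF+SCFA. Macrophage markers had 7 of 11 called higher and 0 lower in ConvD against GF, and 2 higher and 0 lower in ConvD against GF+SCFA. Of the neutrophil and monocyte markers, 4 of 6 tested were higher against GF and 5 of 6 against GF+SCFA, and 0 were lower. B and plasma cell markers (6 genes) summed to 5.74 to 7.81 TPM in ConvD, 1.56 to 2.01 TPM in GF+SCFA and 2.15 to 3.31 TPM in GF livers, with 3 of 4 tested higher against GF+SCFA and 1 of 4 against GF. Stellate cell markers (7 genes) summed to 170 to 186 TPM in ConvD, 127 to 146 TPM in GF+SCFA and 136 to 193 TPM in GF livers, with 3 of 7 higher against GF+SCFA and 0 against GF. Of the stellate markers, 1 of 7 was also called lower in GF+SCFA against GF, where 0.0415% of all genes were called. Erythroid markers (5 genes) summed to 716 to 2930 TPM in ConvD, 426 to 678 TPM in GF+SCFA and 519 to 823 TPM in GF livers, with 0 called. T and NK cell markers (6 genes) summed to 3.9 to 4.83 TPM in ConvD and 3.15 to 4.65 TPM in GF+SCFA livers. In GF livers their sum was 2.38 to 4.04 TPM, and 0 of 4 tested were called in any comparison. Sinusoidal endothelial markers (6 genes) summed to 98.6 to 110 TPM in ConvD and 94.8 to 103 TPM in GF+SCFA livers. In GF livers their sum was 87.2 to 112 TPM. In ConvD livers 1 of 6 was lower against GF and 0 were called against GF+SCFA. In whole liver, a change in the number of cells of a type and in the RNA per cell cannot be told apart, and the part of these cells in the differences of the 8 genes was not tested.

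Per length, Bhlhe41 had 0.0299, 0.033 and 0.0348 of the TPM of Bhlhe40 in ConvD livers, 0.013, 0.0114 and 0.00876 in GF+SCFA livers and 0.0149, 0.0257 and 0.00712 in GF livers. Bhlhe40 was the more abundant of these repressors in all 9 livers, and the share of Bhlhe41 was highest in the ConvD livers without overlap.

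**Figure D3:**
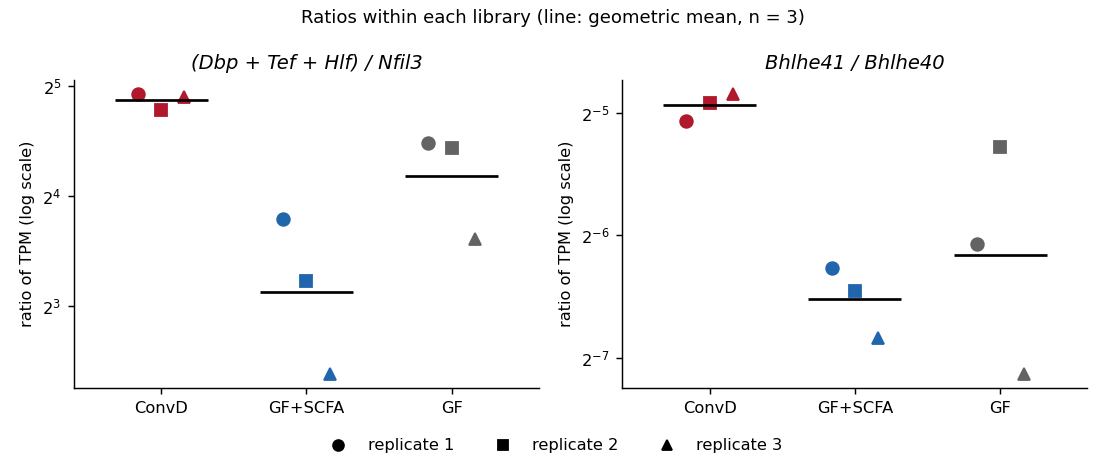
Ratios of TPM within each library on log axes, for the summed PAR bZIP activators over Nfil3 (left) and for Bhlhe41 over Bhlhe40 (right), with marker shape giving the replicate and the line the geometric mean of 3 livers. The 3 ConvD livers have the highest ratios in both panels, 27.6 to 30.5 on the left and 0.0299 to 0.0348 on the right.

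Ccrn4l, encoding Nocturnin, had the smallest adjusted p of the 8 genes in both comparisons with ConvD. It had 16.2, 17.2 and 15.9 TPM in ConvD livers, 33.6, 39.6 and 42.9 TPM in GF+SCFA livers and 37.4, 27.9 and 49.2 TPM in GF livers. The ConvD livers lay close together below all others, and the GF+SCFA livers lay within the range of the GF livers. Ccrn4l fell to 41.5% of the GF level in ConvD livers (log2 fold change -1.27, SE 0.15, adjusted p = 0.00114). It fell to 40.0% of the level of GF+SCFA livers (log2 fold change -1.32, SE 0.15, adjusted p = 0.000498). Both calls were made under all 18 alternatives, 9 of them fits without a liver, with an adjusted p of at most 0.00662 against GF and 0.00383 against GF+SCFA. For GF+SCFA against GF the log2 fold change was 0.05 (SE 0.15, adjusted p = 0.916).

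The decrease of Ccrn4l was set beside 11 other genes of deadenylases and relatives of Nocturnin's nuclease fold, all of which were tested. Against GF, 0 of the 11 were called in ConvD livers by edgeR with TMM scaling or by DESeq2, where 12.8% of all genes were called by edgeR (3 of the 11 had an unadjusted p under 0.05). With library totals 1 was called, the poly(A)-specific ribonuclease gene Parn, whose log2 fold change with TMM scaling was 0.22 (adjusted p = 0.112). The smallest adjusted p values were those of Pan3, a subunit of the PAN deadenylase (log2 fold change -0.36, adjusted p = 0.0552), and Cnot6l, a catalytic subunit of CCR4-NOT (log2 fold change -0.38, adjusted p = 0.0636). In ConvD against GF+SCFA, 1 of 11 was called, where 18.4% of all genes were. It was again Parn, which was higher (log2 fold change 0.31, SE 0.09, adjusted p = 0.0283). The median log2 fold change of these 11 genes was -0.16 in ConvD against GF and -0.10 in ConvD against GF+SCFA, where all tested genes had medians of 0.00 and 0.01.

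Rora encodes the receptor RORα, an activator at ROR response elements such as those of Bmal1 (Arntl) and Nfil3. It had 10.4, 8.47 and 10.8 TPM in ConvD livers, 10.9, 11.0 and 12.2 TPM in GF+SCFA livers and 8.67, 12.1 and 14.1 TPM in GF livers. ConvD livers were just below GF+SCFA livers without overlap and overlapped with GF livers. Rora was not called in any comparison, with log2 fold changes of -0.30 (SE 0.15, adjusted p = 0.206) for ConvD against GF, -0.29 (SE 0.15, adjusted p = 0.189) for ConvD against GF+SCFA and -0.01 (SE 0.15, adjusted p = 0.989) for GF+SCFA against GF. Without GF replicate 1, the GF liver with the least Rora, it was called lower in ConvD against GF (log2 fold change -0.45, adjusted p = 0.0475, and up to 0.492 under the other alternatives). The tables assign Rora a single transcript of 1644 bases, and reads of other Rora transcripts may be missed.

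Groups did not overlap in 5 of the 8 genes in ConvD against GF (31.6% of all genes), in 5 of 8 in ConvD against GF+SCFA (38% of all genes) and in 2 of 8 in GF+SCFA against GF (17.9% of all genes). The genes apart between the germ-free groups were Dbp and Tef, both lower in GF+SCFA. In that comparison 3 of 8 genes (Dbp, Tef and Nfil3) had an unadjusted p under 0.05. The share of all genes at that level was not computed, so this count and those of the gene lists are a description. The ConvD group had the smallest SD of the 3 groups for Dbp, Tef, Nfil3 and Ccrn4l, and the largest for Bhlhe40 and Bhlhe41. For Ccrn4l the SD was 0.701 TPM in ConvD, 4.69 TPM in GF+SCFA and 10.7 TPM in GF livers. Within the GF group, replicate 3 had the highest Nfil3, Bhlhe40, Ccrn4l and Rora and the lowest Dbp, Hlf and Bhlhe41. Within the GF+SCFA group, replicate 3 had the highest Nfil3, Ccrn4l and Rora and the lowest Dbp, Tef and Bhlhe41.

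The core clock genes form the loop that drives these outputs, and 13 of the 14 listed were tested. Npas2, a relative of Clock, was too low to test. Against GF, 3 of 13 were lower in ConvD livers and 0 higher, where 6.9% of all genes were lower and 5.93% higher. With library totals or limma on log2(TPM + 1), 2 were lower and 1 higher, as Cry2 lost its call and Nr1d1 gained one. In ConvD against GF+SCFA, 5 of 13 were lower and 1 higher, where 8.97% of all genes were lower and 9.44% higher. Between the germ-free groups, 0 of 13 were called by edgeR, with 4 at an unadjusted p under 0.05 (share over all genes not computed), and 1 was called by DESeq2. The median log2 fold change of the 13 was -0.10 in ConvD against GF, -0.02 in ConvD against GF+SCFA (0.05 when libraries were scaled by their totals) and -0.08 in GF+SCFA against GF. Cry1, a repressor of CLOCK and BMAL1, had 1.38, 1.85 and 1.97 TPM in ConvD livers, 5.23, 6.64 and 6.10 TPM in GF+SCFA livers and 5.16, 3.70 and 5.06 TPM in GF livers. It was lower in ConvD than in GF+SCFA livers (log2 fold change -1.87, SE 0.17, adjusted p = 1.91e-05) and than in GF livers (log2 fold change -1.48, adjusted p = 0.00018).

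The clock repressor genes Per2 (log2 fold change -0.71 against GF+SCFA and -0.84 against GF) and Cry2 (-0.26 and -0.34) were also called lower in ConvD livers in both comparisons. The Cry2 calls depended on the scaling: with library totals and with limma on either TPM scale Cry2 was called in neither comparison, and with upper-quartile factors it was called against GF alone. Per1 was called lower against GF+SCFA (-0.58, adjusted p = 0.00437) and gave -0.34 against GF (adjusted p = 0.0653). Nr1d1 encodes REV-ERBα, the repressor that opposes ROR receptors. It had 40.0, 33.6 and 28.3 TPM in ConvD livers, 12.0, 16.7 and 8.23 TPM in GF+SCFA livers and 17.0, 18.2 and 11.5 TPM in GF livers. The ConvD livers were above all others. Nr1d1 was 2.59-fold higher against GF+SCFA (adjusted p = 0.0216), while the difference from GF was 1.04 on the log2 scale (adjusted p = 0.0631) and was called with DESeq2, library totals and limma on log2(TPM + 1). Arntl, named outside the rule for its part in the second loop, had 0.60, 0.54 and 0.54 TPM in ConvD livers, 0.88, 1.07 and 1.00 TPM in GF+SCFA livers and 0.37, 0.30 and 0.49 TPM in GF livers. It was lower in ConvD than in GF+SCFA livers (log2 fold change -0.90, SE 0.22, adjusted p = 0.0135). For GF+SCFA against GF the log2 fold change was 1.37 (SE 0.24, adjusted p = 0.0646 by edgeR), which DESeq2 called, and for ConvD against GF it was 0.48 (SE 0.26, adjusted p = 0.256).

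**Figure D4:**
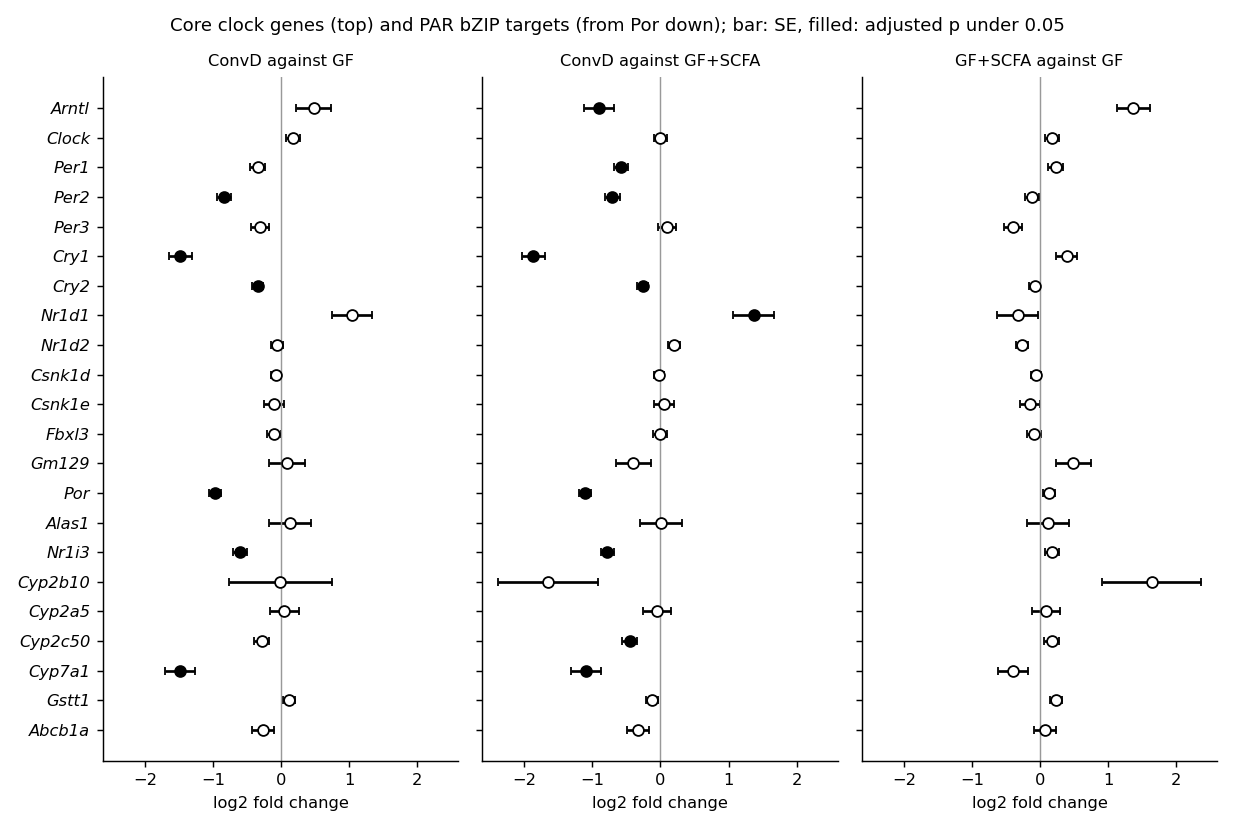
Log2 fold change (x axis, bars are standard errors) of tested core clock genes and of PAR bZIP target genes in each comparison, with filled points for an adjusted p under 0.05. Against GF+SCFA, Cry1 (-1.87) and Por (-1.11) lie left of 0 and Nr1d1 (1.37) lies right of it.

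Genes known from mouse studies as targets of DBP, TEF and HLF in liver were listed as a readout of the D-box, and 10 of 11 were tested. Against GF, 3 of 10 were lower in ConvD livers and 0 higher, where 6.9% of all genes were lower (median log2 fold change -0.27, and 0.00 over all genes). In ConvD against GF+SCFA, 5 were lower and 0 higher, where 8.97% of all genes were lower (median -0.52, and 0.01 over all genes). Between the germ-free groups, 0 were called by edgeR or DESeq2, with 1 at an unadjusted p under 0.05 by edgeR (median 0.15, and -0.01 over all genes). The counts were the same with library totals and upper-quartile factors. Por, the reductase that supplies microsomal P450 enzymes with electrons, had 222, 234 and 201 TPM in ConvD livers, 417, 459 and 455 TPM in GF+SCFA livers and 358, 389 and 489 TPM in GF livers. The ConvD livers were below all others (log2 fold change -1.11, SE 0.09, adjusted p = 8.91e-06 against GF+SCFA). Nr1i3, encoding the xenobiotic receptor CAR, fell to 58.0% of the GF+SCFA level (adjusted p = 0.000278) and to 65.8% of the GF level (adjusted p = 0.00252). Cyp7a1 catalyses the first and rate-limiting step from cholesterol to bile acids. It fell to 46.6% of the GF+SCFA level (adjusted p = 0.014) and to 35.6% of the GF level (adjusted p = 0.00675). Cyp2c50, of a near-identical family whose reads may be divided among members, was called lower against GF+SCFA (log2 fold change -0.45, adjusted p = 0.0149), as was Per1, which is also counted among the core clock genes. Dbp was called higher and these 5 targets lower in the same comparison of ConvD with GF+SCFA livers. Nfil3, the D-box repressor, was also called lower in it (log2 fold change -1.48, adjusted p = 0.0142). The other 5 tested targets, Tef and Hlf were not called in it. Against GF, Por, Nr1i3, Cyp7a1, Tef and Hlf were called lower. Dbp (log2 fold change 0.21, adjusted p = 0.49) and Nfil3 (-0.74, adjusted p = 0.162) were not called against GF. A relation of Dbp, Tef, Hlf or Nfil3 to these targets was not tested.

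Likeness to each gene was measured as Pearson's r of log2 CPM over the 9 livers, which fall into 3 groups, so genes that differ between groups resemble each other. The values are the highest among all tested genes and are a description. Ccrn4l was most like Ccdc90a (r = 0.987) and Foxo1 (r = 0.986), the gene of a transcription factor of fasting metabolism, and Foxo1 was lower in ConvD than in GF+SCFA livers (log2 fold change -0.77). Bhlhe41 was most like 6430571L13Rik (r = 0.98) and the glutathione S-transferase gene Gstm5 (r = 0.974). Dbp was most like Nr2f2 (r = 0.976), an orphan nuclear receptor gene, and Sort1 (r = 0.973), the gene of the sorting receptor sortilin. Nfil3 was most like Tmem205 (r = 0.972) and the mitochondrial nuclease gene Endog (r = 0.964). Bhlhe40 was most like Xbp1 (r = 0.97), a transcription factor of the unfolded protein response, and Tuft1 (r = 0.94). The closest genes were Mll5 (r = 0.956) and Spast (r = 0.945) for Tef, Son (r = 0.942) and Zbtb7a (r = 0.94) for Hlf, and Mtdh (r = 0.944) and Dctpp1 (r = 0.931) for Rora.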

How the data were processed

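A Qiagen kit and stranded Illumina TruSeq mRNA libraries were used, per the labels' protocols. The submitters' processing notes list RSEM 1.2.23, Bowtie2 and mm9. The strand setting is not given in the sources used here. The deposited files give, per gene symbol, expected counts (estimated counts, not normalised) and TPM, which the authors normalised for length and depth. FPKM values were not used.

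Expected counts were rounded and tested with edgeR 4.0.16 in R 4.3.3. Genes passed filterByExpr with a minimum count of 10, libraries were scaled by TMM (factors 0.935 to 1.06), and a model of 3 groups over 9 samples was fitted by robust quasi-likelihood with 6 residual degrees of freedom. The SE is |log2 fold change| over the root of the F statistic. The number of samples limits the precision of all p-values. Libraries of one group differed by a chi-square of 10.8 to 51.2 per degree of freedom, well above counting noise. Alternatives used other scalings, DESeq2 1.42.0, no filter, limma 3.58.1 on log2(TPM + 0.1) and log2(TPM + 1), the livers of the 2 groups compared only, the replicate number as a block, and leaving out each liver. The code was tested on simulated data. The genes and lists were chosen with earlier results of these data known. One gene of the core clock is not reported here. Of 108 list entries, 106 matched the files by symbol or RefSeq accession. All 8 genes are named; of each list up to 6 with the smallest adjusted p against GF may be named, and for each gene the 2 most alike.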

Additional observations from a re-analysis of the deposited data

How the results depend on the processing

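Ccrn4l kept its call under every alternative run in both comparisons with ConvD, and Bhlhe41 under every alternative that used all livers. Against GF, the ConvD count of called members was 4. It was 2 (Bhlhe41 and Ccrn4l) with upper-quartile factors, library totals and limma on either TPM scale, which moved the median of all genes by 0.05 to 0.08 on the log2 scale, and 1 to 5 without a liver. The count of all genes called was 1544. It was 972 with limma on log2(TPM + 0.1) and 1019 with limma on log2(TPM + 1), and 849 to 1466 without a liver. Of these calls 714 of 1544 were higher in ConvD livers, and 728 of 972 with limma on log2(TPM + 0.1). In GF+SCFA against GF, 0 members were called, 1 (Dbp) with DESeq2, and 0 to 1 without a liver. All genes called numbered 5, against 9 with library totals, 82 with DESeq2, 24 with no filter, 1 with limma on either scale and 0 to 173 without a liver. In ConvD against GF+SCFA, 4 members were called (2 to 5 without a liver) and 2216 genes (1383 to 2393 without a liver). The counts of 173 and 2393 were those without GF replicate 3. The cause of these shifts was not tested.

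Differences that were not called changed sign in some fits. For GF+SCFA against GF, Rora gave a log2 fold change of 0.00 with upper-quartile factors, library totals and the replicate block. Without a liver, Rora ranged from -0.16 to 0.10, Bhlhe41 from -0.62 to 0.31 (without GF replicate 2) and Ccrn4l from -0.10 (without GF replicate 2) to 0.22, with -0.04 without GF+SCFA replicate 3. For ConvD against GF+SCFA, Tef gave 0.03 with upper-quartile factors, 0.04 with library totals, 0.06 with limma on either scale, 0.00 without GF+SCFA replicate 1 and 0.01 without ConvD replicate 1, and Bhlhe40 gave -0.01 without ConvD replicate 2 and up to 0.41 without ConvD replicate 3. The log2 difference in the ratio of Bhlhe41 to Bhlhe40 between GF+SCFA and GF livers was -0.36 and ranged from -0.84 to 0.08 without a liver. All other ratio differences kept their sign with expected counts in place of TPM and without a liver.

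The labels number replicates 1 to 3 in each group. Over all tested genes, the correlation of the deviations of same-numbered livers from their group means was -0.07 to 0.14. A correlation over all genes cannot exclude a factor that same-numbered livers share and that acts on few genes. By TPM, replicate 3 had the least Dbp and Bhlhe41 and the most Rora in each group. For the other members its rank differed between groups. With the number as a replicate block, 4 members were again called in each comparison with ConvD. Against GF, Tef lost its call (adjusted p = 0.0558) and Nfil3 gained it (adjusted p = 0.0324). The levels of Bhlhe41 rest on 7 to 49 counts per liver.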
